A study of Mus musculus with 10 samples.

Results

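The interferon regulatory factor (IRF) family was read from chromatin accessibility at 8 genes, Irf1, Irf2, Irf3, Irf4, Irf5, Irf7, Irf8 and Irf9. Its regions were all deposited ATAC-seq intervals that overlapped one of these genes, as annotated in GENCODE M21 on mm10, or the 10 kb on either side. After overlapping intervals of the 5 lists were merged, 58 regions met this rule, of 211107 in the whole series, at 8 of 55450 annotated genes. The rule takes regions by position alone, although the family itself was chosen with earlier results of these data known.

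The cells were Myc-CaP, a mouse prostate cancer line of FVB/NJ origin. They were untreated (Ctrl), treated with 2 µM oxaliplatin (Oxali), with 2 µM cisplatin (Cispl), with IFNγ at 1000 pg (the labels give no volume), or with the same doses of oxaliplatin and IFNγ together (Oxali + IFNγ), all for 48 h. Each of the 5 groups had 2 libraries, which the authors pooled before calling, so every group is 1 peak list. The lists hold no values per library, so the spread between replicates could not be computed from them and no test was made. The intervals given here cover counting error alone.

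IRF proteins share a DNA-binding domain that recognises the interferon-stimulated response element (ISRE). IRF1 activates and IRF2 competes at many of the same sites, IRF9 is the DNA-binding subunit of the complex ISGF3, and IRF3, IRF5 and IRF7 act downstream of nucleic acid sensors to switch on type I interferon genes. IRF4 and IRF8 are known mainly from lymphoid and myeloid cells. IFNγ signalling acts on genes through the gamma-activated site (GAS), and Irf1 is one of its classical direct targets.

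A level is the highest pileup of a list in a region divided by the genome background of that list, so that a level of 10 is 10 times the average coverage. The genome background, which scales with depth, ran from 9.62 in the list of IFNγ to 13.8 in the Cispl list. The Cispl list ends at a −log10 p of 2.99 and the others at 2.00, and the IFNγ list, at 79.2% of the depth of Ctrl, is the shallowest. Of the marker genes for prostate epithelium, 6 of 9 had a called 5′ end in Ctrl. Of the epithelial markers Cdh1 had no called start-site region in any list and Epcam only a weak one, at 2.49, after IFNγ. For blood cells 3 of 9 markers had a called 5′ end, with summed levels of 28.5 to 50.3 and no start-site level above 22.1. For fibroblasts 2 of 4 were called, at summed levels of 116 to 162.

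Start sites are shown first, because Irf1 and Irf2 had the strongest promoters of the family and Irf8 a weak one. The RefSeq promoters (GRCm38.p6, 250 bases before to 50 after the start) of these 3 genes are printed after their names in transcript direction. Capitals mark letters that match the ISRE core GAAANNGAA, the GAS letters TTCNNNGAA, the AP-1 letters TGANTCA or the NF-κB consensus on either strand. The reference is C57BL/6J sequence, whereas the line is FVB/NJ.
Irf1, chr11:53769764-53770063, plus strand: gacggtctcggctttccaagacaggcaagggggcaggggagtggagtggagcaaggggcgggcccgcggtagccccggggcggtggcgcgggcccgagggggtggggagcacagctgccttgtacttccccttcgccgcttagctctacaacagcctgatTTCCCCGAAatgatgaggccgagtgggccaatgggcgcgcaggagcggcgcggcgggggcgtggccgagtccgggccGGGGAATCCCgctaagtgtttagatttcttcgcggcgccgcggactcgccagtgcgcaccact
Irf2, chr8:46739495-46739794, plus strand: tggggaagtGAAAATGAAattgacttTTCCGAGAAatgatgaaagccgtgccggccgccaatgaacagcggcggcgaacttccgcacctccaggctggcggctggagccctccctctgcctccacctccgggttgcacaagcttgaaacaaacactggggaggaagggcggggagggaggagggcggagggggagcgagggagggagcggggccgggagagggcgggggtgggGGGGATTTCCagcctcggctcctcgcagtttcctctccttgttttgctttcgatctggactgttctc
Irf8, chr8:120736108-120736407, plus strand: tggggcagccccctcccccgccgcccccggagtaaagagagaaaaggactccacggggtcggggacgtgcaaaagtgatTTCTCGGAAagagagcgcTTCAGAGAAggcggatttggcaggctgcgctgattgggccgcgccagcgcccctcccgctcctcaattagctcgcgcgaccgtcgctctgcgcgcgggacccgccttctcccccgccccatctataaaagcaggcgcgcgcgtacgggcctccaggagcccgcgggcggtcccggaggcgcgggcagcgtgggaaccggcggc

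In the printed Irf1 promoter the capitals are 1 GAS match followed by 1 NF-κB match. The Irf2 promoter has in turn 1 ISRE core match, 1 GAS match and 1 NF-κB match. The printed Irf8 promoter has 2 GAS matches, which do not overlap. Of 11 RefSeq promoters of the 8 genes, 1 held an ISRE core match, 3 a GAS match, 0 an AP-1 match and 2 an NF-κB match. Over all 32851 promoters of the same length the shares were 8.56% for the ISRE core, 8.30% for GAS, 7.81% for AP-1 and 4.51% for NF-κB. A match describes the letters and is not a shown binding site.

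The 4 strong IRF promoters had lower levels in every treated list than in Ctrl, and lowest under both agents. At Irf1, the activator, the region chr11:53768776-53770833 had its summit 69 bp upstream of the 5′ end. Its level was 142 untreated (95% interval 135 to 149), 104 after oxaliplatin, 90.0 after cisplatin, 96.7 after IFNγ and 80.5 after both agents. The ratio to Ctrl was 0.734 (0.681 to 0.791) under oxaliplatin, 0.635 (0.589 to 0.683) under cisplatin, 0.682 (0.629 to 0.739) under IFNγ and 0.568 (0.525 to 0.614) under both agents. All 4 treated values lay below Ctrl with no overlap of their counting intervals.

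Irf2, the competitor of Irf1, had its start-site region at chr8:46738960-46739867, which is also a start site of Gm16675. The level was 147 untreated, 100 after oxaliplatin, 93.2 after cisplatin, 85.1 after IFNγ and 71.5 after both agents. The ratio reached 0.485 (0.448 to 0.526) under both agents. At Irf9, the ISGF3 subunit, the region chr14:55603541-55604677 had 82.2 untreated, 55.9 after oxaliplatin, 55.3 after cisplatin, 53.1 after IFNγ and 45.1 after both agents. The last was 0.548 of Ctrl (0.494 to 0.608).

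Irf3, a constitutively expressed sensor-activated factor, shares its promoter with the neighbouring gene Bcl2l12. Its region chr7:44997138-44999228 had 108 untreated, 62.6 after oxaliplatin, 54.6 after cisplatin, 74.5 after IFNγ and 46.0 after both agents. The ratio was 0.578 (0.527 to 0.634) under oxaliplatin, 0.505 (0.461 to 0.552) under cisplatin, 0.689 (0.628 to 0.755) under IFNγ and 0.425 (0.385 to 0.469) under both agents. This was the lowest ratio of any IRF region with the combination. Because the promoter is shared, the part of either gene cannot be told apart.

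Strong promoters were lower across the genome too. Start-site regions of the whole genome with a Ctrl level of at least 50 had a median ratio of 0.706 under oxaliplatin, 0.614 under cisplatin, 0.673 under IFNγ and 0.515 under both agents. Of that class, 58.6% had a ratio as low as Irf1 under oxaliplatin and 63.4% under both agents. For Irf3, 9.36% of the class was as low under oxaliplatin, 11.0% under cisplatin, 55.9% under IFNγ, and 22.6% under both agents. Scaled by start-site regions common to all lists, the median of all regions moved from 1.14 to 1.25 under oxaliplatin, from 1.09 to 1.39 under cisplatin, from 0.854 to 1.12 under IFNγ and from 1.13 to 1.52 under both agents. Under that scaling the ratios of Irf1, Irf2, Irf3 and Irf9 were 0.572 to 0.904, still below 1 in every treatment. As fold over the local background the ratios of these genes were 0.549 to 0.974. The highest was Irf9 under oxaliplatin, where the fold was 24.8 against 25.4 in Ctrl, close to no change.

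Irf7, the amplifier of type I interferon production, had a moderate promoter with levels near Ctrl. The region chr7:141264897-141266874 had 35.5 untreated, 34.5 after oxaliplatin, 31.5 after cisplatin, 29.3 after IFNγ and 29.7 after both agents. The ratio was 0.972 (0.846 to 1.12) under oxaliplatin and 0.886 (0.774 to 1.02) under cisplatin, both with intervals that hold 1. These turned to 1.07 and 1.13 when scaled by common start-site regions. It was 0.826 (0.708 to 0.962) under IFNγ and 0.838 (0.728 to 0.964) under both agents, values that turned to 1.08 and 1.13 under the same scaling. As fold over the local background the ratio was lower instead, at 0.843 under oxaliplatin, 0.738 under cisplatin, 0.785 under IFNγ and 0.691 under both agents. No other region of Irf7 met the rule for named regions.

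The factors of blood cells had weak start sites. At Irf4 the region chr13:30748829-30750035 had 13.6 untreated, 12.2 after oxaliplatin, 11.8 after cisplatin, 9.77 after IFNγ and 10.5 after both agents. The ratios under IFNγ, 0.719 (0.552 to 0.932), and under both agents, 0.769 (0.608 to 0.972), had intervals below 1, and the latter became 1.04 under the start-site scaling. As fold over the local background these ratios were 0.697 and 0.684, and that under cisplatin was 0.758. The region at the 5′ end of Irf8, chosen after its values were seen, was chr8:120735899-120736452 and had 11.0 untreated, 10.6 after oxaliplatin, 11.0 after cisplatin, 7.90 after IFNγ and 8.29 after both agents. Its fold over the local background of the region was 7.58 untreated, 5.51 after oxaliplatin, 5.99 after cisplatin, 4.66 after IFNγ and 3.71 after both agents, so on that scale every treated list was below Ctrl. Levels after IFNγ, with or without oxaliplatin, were the lowest of the 5 lists at both genes.

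Irf5, which acts in sensor signalling of myeloid cells, had no region within 1 kb of its 5′ end. Its nearest start-site region, chr6:29528503-29529536, lay 2586 bp downstream at the start of an internal transcript. The level was 4.20 untreated, 5.94 after oxaliplatin, 5.67 after cisplatin, 5.82 after IFNγ and 8.91 after both agents. The combination was 2.12 times Ctrl (1.51 to 3.01) and 1.50 times Oxali (1.10 to 2.06), while the intervals of the other treatments held 1. Of all start-site regions with a Ctrl level under 10, 21.3% were as high under both agents.

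**Figure D1:**
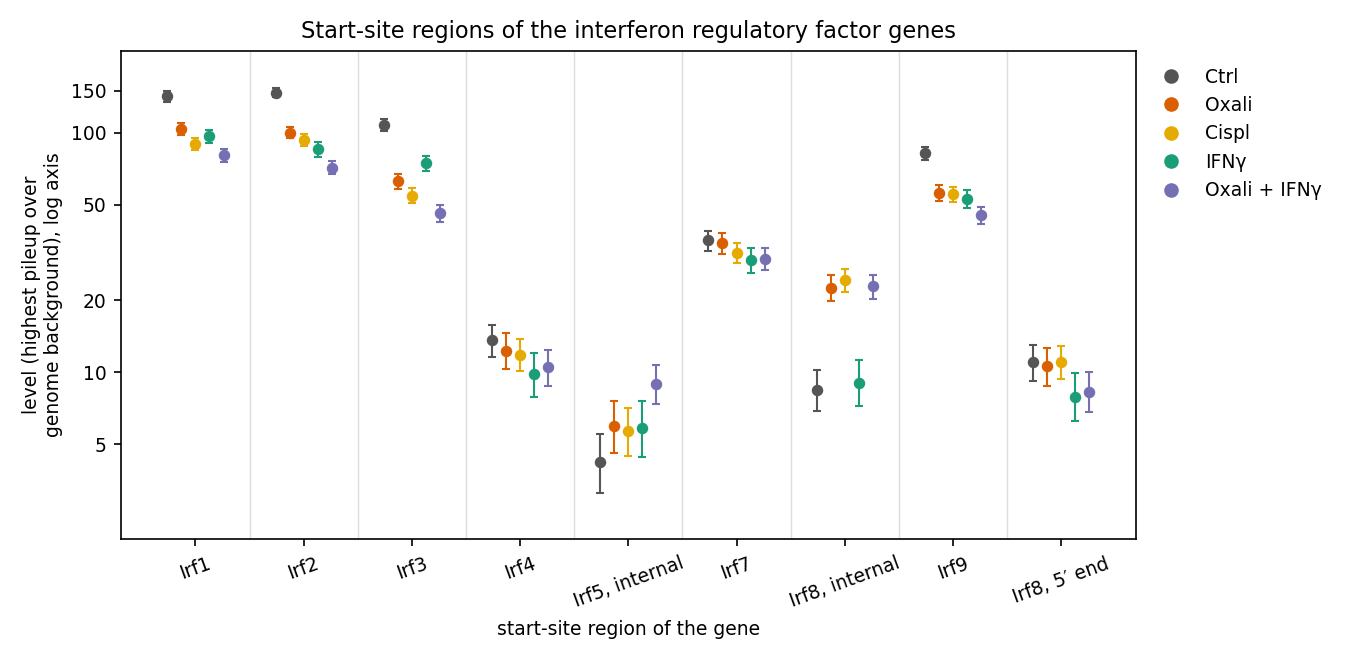
Level of the start-site region of each IRF gene in the 5 lists, on a log axis, with 95% Poisson intervals that cover counting error only, 1 pooled list a point. The strong promoters of Irf1, Irf2, Irf3 and Irf9 are highest in Ctrl and lowest with Oxali + IFNγ, and the internal Irf8 region is near 22.5 in the 3 lists with a platinum drug against 8.40 in Ctrl.

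Within Irf8, accessibility was higher with the platinum drugs in the gene body, not at the 5′ end. The region with the highest summed level near any Irf8 transcript start was chr8:120743325-120744605, whose summit lay in a coding exon 7358 bp downstream of the 5′ end. Its level was 8.40 untreated, 22.5 after oxaliplatin, 24.3 after cisplatin, 9.04 after IFNγ and 22.8 after both agents. The ratio to Ctrl was 2.68 (2.12 to 3.41) under oxaliplatin, 2.89 (2.31 to 3.64) under cisplatin, 1.08 (0.799 to 1.45) under IFNγ and 2.71 (2.16 to 3.43) under both agents. Of start-site regions under 10 in Ctrl, 9.43% were as high under oxaliplatin, 5.36% under cisplatin and 10.5% under both agents. The 3 lists with a platinum drug were close to each other, at a ratio of 1.01 (0.851 to 1.20) for Oxali + IFNγ over Oxali and 1.08 (0.912 to 1.27) for Cispl over Oxali, and Ctrl and IFNγ overlapped.

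In Ctrl the region at the 5′ end was the higher one, at 11.0 against 8.40, so the levels in the platinum lists decided which region was taken for Irf8, and its ratios are a description. The local background was higher in the same lists. It was 1.29 times the genome background in Ctrl, 2.41 after oxaliplatin, 2.54 after cisplatin, 1.69 after IFNγ and 2.80 after both agents, and the fold over local background gave ratios of 1.46, 1.51, 0.827 and 1.29 in the same order of treatments. Markers of blood cells, which use Irf8, had summed start-site levels of 38.4 untreated, 45.3 after oxaliplatin, 50.3 after cisplatin, 28.5 after IFNγ and 49.8 after both agents. In that order Csf1r, a receptor of macrophages, had 7.00, 17.2, 21.1, 4.37 and 18.6. Cd68, of macrophages, had 22.1 in Ctrl and 13.8 to 18.7 in the treated lists, and Spi1, a myeloid transcription factor, 5.02 in Ctrl and 2.49 to 3.95 in the treated lists. Ptprc was at 2.93 or less, while Cd79a, Cd3e, Itgam and Ikzf1 had no start-site region in any list. The part of the local background and of these markers in the higher level was not tested.

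The Irf8 region chr8:120739262-120740479, 3757 bp downstream, had 5.19 untreated, 9.05 after oxaliplatin, 9.52 after cisplatin, 4.99 after IFNγ and 13.3 after both agents. The combination was 2.57 times Ctrl (1.91 to 3.48) and 1.47 times Oxali (1.15 to 1.90). Of start-site regions under 10 in Ctrl, 12.4% were as high under both agents. As fold over the local background this region had 3.16 untreated, 3.18 after oxaliplatin, 3.28 after cisplatin, 2.51 after IFNγ and 4.19 after both agents, so that Oxali and Cispl were close to Ctrl on that scale. A neighbour 59 bp away, chr8:120740539-120740776, was called after both agents and in no other list, at a level of 6.58. Its fold was 2.09 over a local background of 3.11 times the genome value.

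Upstream, chr8:120728102-120728829 lay 8048 bp before the 5′ end in an intron of Gm20388. It had 2.47 untreated, 7.63 after oxaliplatin, 4.58 after cisplatin, 4.26 after IFNγ and 6.82 after both agents, and all 4 ratios, 1.72 (1.05 to 2.86) to 3.09 (2.02 to 4.85), had intervals above 1. Its Ctrl value rests on a pileup of 30. Of start-site regions under 10 in Ctrl, 5.90% were as high under oxaliplatin, 24.0% under cisplatin, 2.38% under IFNγ and 10.0% under both agents. A region 29959 bp downstream, chr8:120766244-120766400, was called after cisplatin alone at 2.83.

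Sequences within 100 bases of the summits show what letters lie under 4 of the regions described. They are printed for the Irf8 coding-exon region and its upstream region, for the Irf2 intron region described next and for the Irf1 upstream region gained with every treatment, on the plus strand of mm10, with the same motifs in capitals.
Irf8 coding exon, chr8:120743616-120743816: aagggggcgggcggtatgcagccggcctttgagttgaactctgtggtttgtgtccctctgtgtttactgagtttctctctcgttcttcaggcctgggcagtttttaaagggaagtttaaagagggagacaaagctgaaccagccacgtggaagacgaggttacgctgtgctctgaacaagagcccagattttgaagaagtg
Irf8 upstream, chr8:120728210-120728410: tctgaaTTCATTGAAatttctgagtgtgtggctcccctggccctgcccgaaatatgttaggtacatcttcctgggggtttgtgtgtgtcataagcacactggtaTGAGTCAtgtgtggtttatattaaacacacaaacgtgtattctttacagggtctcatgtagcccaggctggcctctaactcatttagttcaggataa
Irf2 last part of the gene, chr8:46842760-46842960: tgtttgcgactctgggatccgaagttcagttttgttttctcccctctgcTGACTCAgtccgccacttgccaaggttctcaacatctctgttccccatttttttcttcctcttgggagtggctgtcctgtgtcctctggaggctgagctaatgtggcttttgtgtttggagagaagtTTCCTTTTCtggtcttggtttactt
Irf1 upstream, chr11:53761372-53761572: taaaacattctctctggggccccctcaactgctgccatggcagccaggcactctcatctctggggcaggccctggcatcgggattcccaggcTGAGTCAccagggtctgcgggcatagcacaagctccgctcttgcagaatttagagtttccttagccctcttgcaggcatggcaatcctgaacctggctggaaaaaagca

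The Irf8 coding-exon window held none of the 4 motifs, and its upstream window had 1 GAS and 1 AP-1 match. The Irf2 window had 1 AP-1 match and 1 ISRE core match on the minus strand, and the Irf1 window 1 AP-1 match. Over the 58 IRF regions, 15 (25.9%) had an AP-1 match against 21.0% of all 211107 regions, 7 (12.1%) a GAS match against 6.05%, 4 (6.90%) an ISRE core match against 5.56% and 2 (3.45%) an NF-κB match against 2.55%. No motif was tested for enrichment.

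Irf2 spans 107727 bp and had the most regions, 16, of which 8 were in all 5 lists. Its intron region chr8:46842022-46843518, 103128 bp from the 5′ end, had 15.9 untreated, 33.3 after oxaliplatin, 27.2 after cisplatin, 13.0 after IFNγ and 32.8 after both agents. The ratio was 2.09 (1.75 to 2.50) under oxaliplatin, 1.71 (1.43 to 2.04) under cisplatin, 0.817 (0.647 to 1.03) under IFNγ and 2.06 (1.73 to 2.46) under both agents. Of regions of like level away from start sites, 5.46% were as high under oxaliplatin and 4.72% under cisplatin. The lists with a platinum drug were high and Ctrl and IFNγ were low. The local background was 1.07 times the genome background in Ctrl, 1.84 after oxaliplatin, 2.01 after cisplatin, 1.03 after IFNγ and 1.95 after both agents. As fold over it the region had 13.9 untreated, 17.3 after oxaliplatin, 13.1 after cisplatin, 11.6 after IFNγ and 16.2 after both agents, so Cispl was then below Ctrl. The part of the local background in the higher levels was not tested.

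Another intron region, chr8:46750118-46751150, had 13.7 untreated, 22.3 after oxaliplatin, 20.6 after cisplatin, 7.90 after IFNγ and 25.3 after both agents. Here IFNγ alone was 0.578 of Ctrl (0.434 to 0.762) and the combination 1.85 times Ctrl (1.53 to 2.25). The region chr8:46799641-46800370 was high in Ctrl and IFNγ instead, with 18.3 untreated, 11.4 after oxaliplatin, 14.3 after cisplatin, 18.8 after IFNγ and 10.7 after both agents. Its ratio was 0.626 (0.500 to 0.781) under oxaliplatin, and 3.61% of like regions were as low.

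Its neighbour 167 bp away, chr8:46799223-46799473, was lost after oxaliplatin with and without IFNγ, at 3.46 untreated, 2.33 after cisplatin and 5.41 after IFNγ. The Irf2 intron regions at 103128, 11014 and 60164 bp were singled out after their values were seen, whereas the lost region and 3 gained ones follow the rule for named regions. Those at chr8:46738738-46738897, 62 bp from the main promoter region, and chr8:46751219-46751373 were called after cisplatin alone at 18.3 and 3.56. The former is 160 bp wide, at a fold of 1.65 over a local background of 11.1 times the genome value. Its absence from the other lists gives no bound on the level there. The region chr8:46764800-46765657 was called at 2.75 after oxaliplatin, 3.42 after cisplatin and 3.95 after both agents.

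The 3′ end of Irf1 was the part of the family where the combination stood highest over Oxali alone. The 2 regions downstream of the first were chosen after their values were seen. In the 3′ untranslated region, chr11:53777555-53778085 had 2.47 untreated, 3.46 after oxaliplatin, 6.03 after cisplatin, no interval after IFNγ and 7.82 after both agents. The combination was 3.17 times Ctrl (2.09 to 4.93) and 2.26 times Oxali (1.55 to 3.36), and Cispl was 2.44 times Ctrl (1.59 to 3.84). Among regions away from start sites and under 10 in Ctrl, 7.93% were as high under both agents and 10.4% under cisplatin.

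Downstream, chr11:53778518-53779022 had 2.04 after oxaliplatin, 2.62 after cisplatin and 5.27 after both agents, at 2.58 times Oxali (1.59 to 4.34), whose interval missed the q threshold of a call. The region chr11:53779382-53780532 had 4.20 untreated, 2.22 after oxaliplatin, 2.47 after cisplatin, 3.43 after IFNγ and 6.43 after both agents, at 2.90 times Oxali (1.83 to 4.73) and 1.87 times IFNγ (1.24 to 2.90). These were the IRF regions at least 1.5 times higher under both agents than under oxaliplatin, 3 of 41 with an interval in both lists, against 3.99% of all regions.

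The local background of these 3 regions was 2.62 to 2.80 times the genome background after both agents. It was at most 1.10 untreated, 1.00 after oxaliplatin, 1.28 to 1.36 after cisplatin and 1.49 in the 1 region called after IFNγ. Read as fold over that local background, the 3′ untranslated region had 2.16 untreated, 3.26 after oxaliplatin, 4.27 after cisplatin and 2.75 after both agents. The combination was then no longer above Oxali there, nor at the next region (1.86 against 1.96), and at the last one it had 2.41 against 2.12 for Oxali and 3.75 for Ctrl, below Ctrl on that scale. The part of this broader coverage in the higher levels was not tested. Farther along, chr11:53782663-53782875 was gained after oxaliplatin at 3.46, after cisplatin at 2.76 and after both agents at 5.03, where the folds over local background were 3.26, 2.14 and 2.09, and chr11:53785155-53785325 after both agents alone at 3.80.

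**Figure D2:**
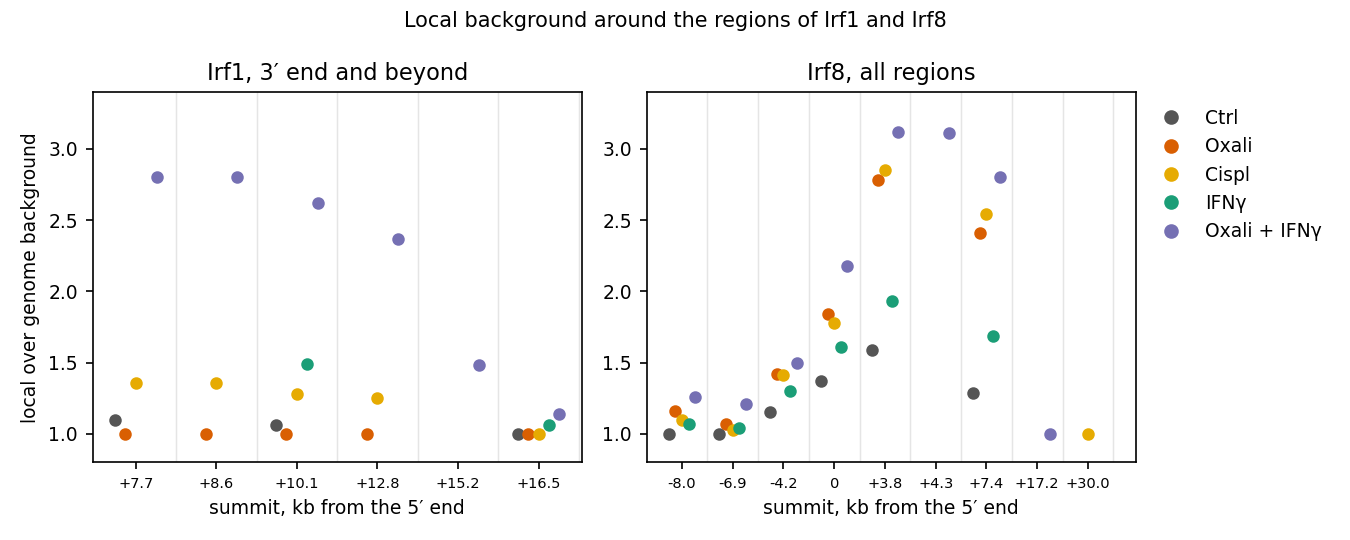
Local background of each region relative to the genome background of its list, by the distance of the summit from the 5′ end, for the regions at and beyond the 3′ end of Irf1 and all regions of Irf8, with a point only where the list had an interval. Around the 3′ end of Irf1 the Oxali + IFNγ list reaches 2.80 against 1.10 in Ctrl, and at the Irf8 coding exon the 3 lists with a platinum drug reach 2.41 to 2.80 against 1.29 in Ctrl and 1.69 after IFNγ.

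Upstream of Irf1, chr11:53761384-53761562 was gained in all 4 treated lists, at 42.8 after oxaliplatin, 30.5 after cisplatin, 28.5 after IFNγ and 43.9 after both agents. It lies 224 bp from the larger region chr11:53761787-53764338, a start site of Mir7671 named for this reason, which had 105 untreated, 107 after oxaliplatin, 87.9 after cisplatin, 80.6 after IFNγ and 104 after both agents. The gained region is 179 bp wide on a local background of 12.8 to 16.8 times the genome value, and no deposited interval is narrower than 150 bp, so its absence from Ctrl gives no bound on the level there.

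Gains in all 4 treated lists were seen at 2 more genes. At Irf3, chr7:45002510-45002754 in the 3′ untranslated region had 13.5 after oxaliplatin, 17.0 after cisplatin, 9.56 after IFNγ and 14.8 after both agents, on a local background of 4.31 to 5.14 times the genome value. At Irf5, chr6:29547663-29548067 had 4.70 after oxaliplatin, 6.54 after cisplatin, 3.64 after IFNγ and 2.87 after both agents, and it lies within the neighbouring gene Tnpo3. Both were absent from Ctrl. Irf3 also had chr7:44996933-44997090, called after both agents and in no other list at 9.60, 47 bp from the shared promoter. It is 158 bp wide, at a fold of 1.83 over a local background of 5.20 times the genome value. Its absence from the other lists gives no bound on the level there.

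**Figure D3:**
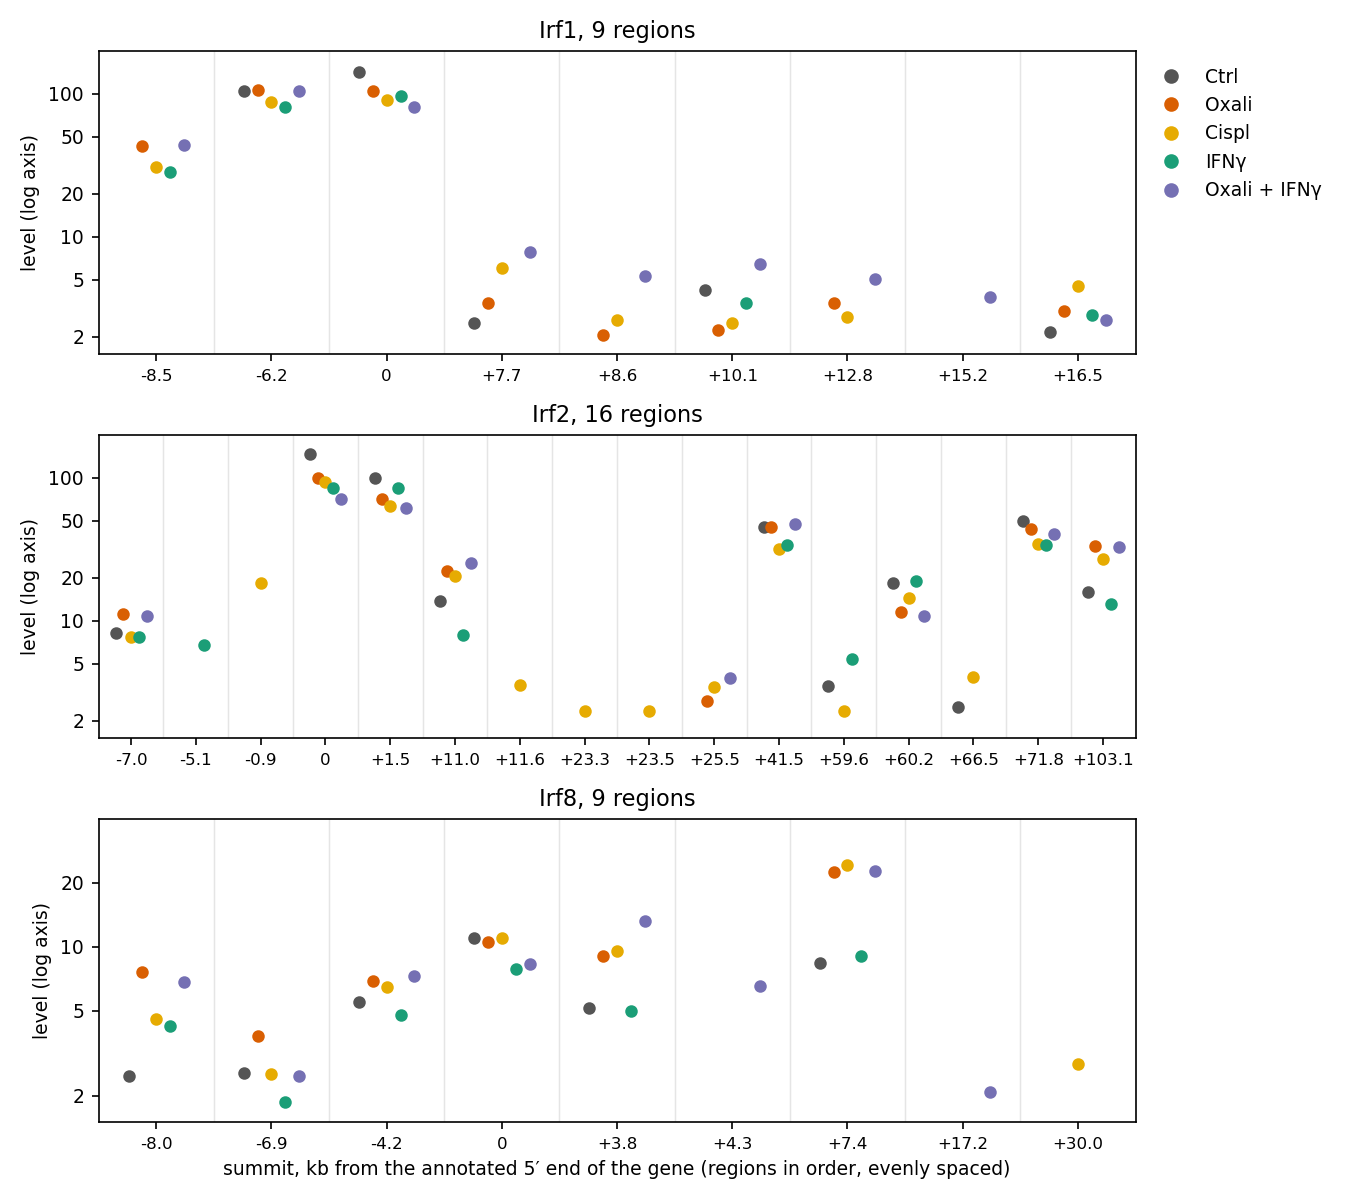
Level of every region of Irf1, Irf2 and Irf8 in each list, on a log axis, in order of the summit's distance from the 5′ end and evenly spaced, with no point where a list had no interval. At the promoters of Irf1 and Irf2 Ctrl is highest, while the Irf2 region farthest downstream and the Irf8 coding-exon region are high in the 3 lists with a platinum drug.

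At Irf4, Irf5 and Irf9, 4 of the 6 regions given next with values in every list were highest in Cispl and lowest in IFNγ. All 6 met the rule for named regions. The 3 genes have 5, 5 and 3 regions with values in every list, and none of the others had that order. The Irf4 intron region chr13:30762132-30762629 had 12.7 untreated, 12.7 after oxaliplatin, 19.9 after cisplatin, 7.07 after IFNγ and 11.6 after both agents. Cispl was 1.57 times Ctrl (1.28 to 1.92) and IFNγ 0.557 of Ctrl (0.413 to 0.746). Upstream of Irf4, chr13:30744646-30745521 had 4.70 untreated, 5.86 after oxaliplatin, 5.52 after cisplatin, 5.09 after IFNγ and 7.20 after both agents, the last at 1.53 times Ctrl (1.09 to 2.17). Of regions of like level away from start sites, 44.0% were as high under both agents.

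In Irf5 the region chr6:29536653-29537541 had 12.5 untreated, 15.3 after oxaliplatin, 18.6 after cisplatin, 6.13 after IFNγ and 14.8 after both agents. As fold over the local background it had 9.40 untreated, 14.1 after oxaliplatin and 13.2 after cisplatin, so Oxali was then above Cispl. IFNγ was 0.490 of Ctrl (0.356 to 0.666), and 2.09% of like regions were as low. Upstream, chr6:29523587-29524257 had 3.62 untreated, 4.79 after oxaliplatin, 6.61 after cisplatin, 2.70 after IFNγ and 4.65 after both agents, with Cispl at 1.82 times Ctrl (1.26 to 2.68). There 25.8% of like regions were as high under cisplatin. A region 10070 bp upstream was called after cisplatin alone at 6.69.

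Beyond Irf9, chr14:55614469-55615123 had 12.1 untreated, 16.7 after oxaliplatin, 19.2 after cisplatin, 7.28 after IFNγ and 13.0 after both agents. The ratio was 1.58 (1.29 to 1.95) under cisplatin and 0.601 (0.445 to 0.804) under IFNγ. The local background was 1.19 times the genome value in Ctrl and 1.74 after cisplatin. As fold over it the region had 9.58 untreated, 13.1 after oxaliplatin and 10.7 after cisplatin, so Oxali was then highest. Its neighbour chr14:55613185-55613799 had 4.86 untreated, 3.99 after oxaliplatin, 9.30 after cisplatin, 7.28 after IFNγ and 3.56 after both agents. There Cispl was 2.33 times Oxali (1.65 to 3.35), and the combination was 0.490 of IFNγ (0.330 to 0.720).

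Further regions were picked out after their values were seen. Within Irf2, chr8:46739941-46741795 had 99.8 untreated, 71.1 after oxaliplatin, 63.3 after cisplatin, 85.0 after IFNγ and 61.1 after both agents, so that Ctrl was highest as at the promoter beside it, whereas the folds over local background of Ctrl and IFNγ were 7.93 and 7.94. The intron regions at 41515 and 71777 bp had 45.5 and 50.1 untreated, with ratios of 0.677 to 1.04 over the 4 treatments. At the latter, the fold over local background was 28.6 untreated and 29.0 after both agents. Upstream, the region at 7047 bp had 8.15 untreated and 7.63 to 11.1 in the treated lists. Regions called in 1 list were at 5057 bp upstream (IFNγ, 6.76) and at 23268 and 23480 bp (Cispl, both 2.33). The one upstream is 150 bp wide, at a fold of 1.81 over a local background of 3.68 times the genome value. Its absence from the other lists gives no bound on the level there.

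At Irf5, the region 9313 bp upstream had 33.6 untreated, 24.0 after oxaliplatin, 22.3 after cisplatin, 25.1 after IFNγ and 30.4 after both agents, with Cispl at a ratio of 0.664. The one at 1205 bp upstream had 3.56 to 4.78 in the 5 lists. That at 3656 bp upstream was called in Cispl alone, at 2.47, with an IFNγ interval of 2.18 that missed the q threshold. An interval in a coding exon at 9185 bp was deposited for IFNγ alone, at 2.08, and missed it too. None of these weak regions had a level above 5.

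At Irf7, a region 547 bp upstream was called in Oxali alone at 5.94, and one 9594 bp upstream, at the start of Cdhr5, had 10.3 untreated and 14.5 after both agents, 1.41 times Ctrl. The former is 160 bp wide, at a fold of 1.78 over a local background of 3.30 times the genome value. Its absence from the other lists gives no bound on the level there. At Irf8, the regions 6856 and 4159 bp upstream had 2.55 and 5.52 untreated and no ratio to Ctrl past 1.5 times in either direction, although the IFNγ interval of the former missed the q threshold. A coding exon at 17207 bp was called at 2.09 after both agents and in no other list. Beyond Irf1, the region at 16475 bp had 2.14 untreated and 4.51 after cisplatin. The Irf4 intron region at 11736 bp had 3.01 to 5.03 in the 5 lists. Beyond Irf9, the region at 9490 bp was gained at 3.56 after cisplatin, 3.22 after IFNγ and 2.87 after both agents.

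Counts over the whole family were set beside those of all regions. Called at a q of at most 0.01 were 37 of 58 regions in Ctrl, 41 after oxaliplatin, 51 after cisplatin, 39 after IFNγ and 46 after both agents. Called so in a treated list and absent from Ctrl (gained) were 6 regions under oxaliplatin, 14 under cisplatin, 5 under IFNγ and 11 under both agents, or 10.3%, 24.1%, 8.62% and 19.0%. The shares of all regions were 21.4%, 27.9%, 5.74% and 29.2%, and those of the family under cisplatin and IFNγ lay near them.

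Lost were 2 regions under oxaliplatin, 0 under cisplatin, 2 under IFNγ and 2 under both agents, beside 4.59%, 3.09%, 7.81% and 3.91% of all regions. The 2 regions lost under IFNγ were the Irf1 3′ untranslated region and chr8:46806103-46806399 in Irf2, which had 2.47 untreated and 4.00 after cisplatin, was missing from the other lists, and was named after its values were seen. Of the gained IRF regions, 2 of 6 under oxaliplatin, 10 of 14 under cisplatin, 2 of 5 under IFNγ and 6 of 11 under both agents lay within 1 kb of another region, against 44.0%, 50.2%, 58.1% and 45.8% of all gained regions. Of the 58, 34 regions were in all 5 lists and 13 in 1 list, of which 6 were in the Cispl list, 4 in that of both agents, 2 in that of IFNγ, 1 in that of oxaliplatin and 0 in Ctrl.

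**Figure D4:**
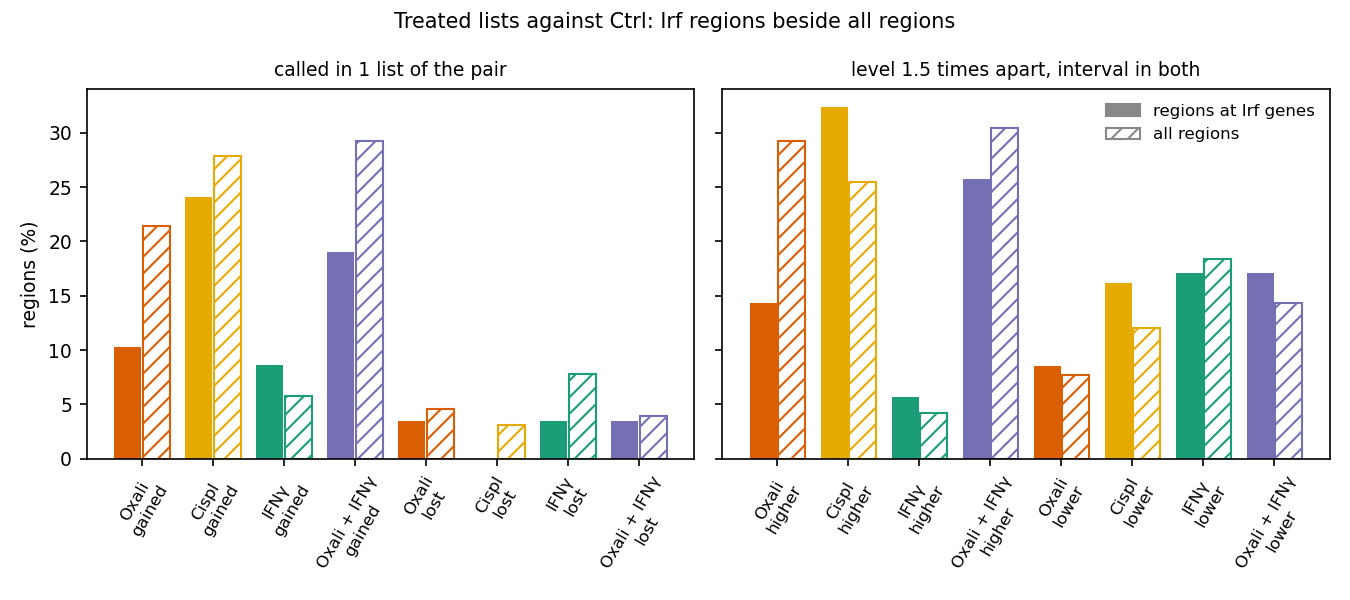
Share of regions gained, lost, or with a level at least 1.5 times higher or lower than Ctrl, in percent, for the regions at IRF genes (filled bars) and all regions (hatched bars). With Oxali 10.3% of IRF regions are gained beside 21.4% of all regions, and with IFNγ 8.62% beside 5.74%.

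Levels were compared where both lists had a deposited interval, whether or not it passed the q threshold. With Oxali, 5 of 35 such regions were at least 1.5 times higher and 3 at least 1.5 times lower, beside 29.2% and 7.67% of all regions. With Cispl the counts were 12 and 6 of 37, beside 25.5% and 12.0%. With IFNγ they were 2 and 6 of 35, beside 4.26% and 18.4%. With Oxali + IFNγ they were 9 and 6 of 35, beside 30.4% and 14.3%. The widest gap was that of the higher regions under oxaliplatin, 14.3% of IRF regions against 29.2%.

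The median ratio of the IRF regions was 1.02 under oxaliplatin (0.901 to 1.32, the order-statistic interval over regions), 1.14 under cisplatin (0.837 to 1.49), 0.817 under IFNγ (0.733 to 0.961) and 1.07 under both agents (0.838 to 1.33). The medians of all regions were 1.14, 1.09, 0.854 and 1.13. Near starts the IRF medians were 0.968 under oxaliplatin, 0.886 under cisplatin, 0.797 under IFNγ and 0.804 under both agents, beside 0.864, 0.792, 0.748 and 0.761 for all start-site regions. Away from starts they were 1.22, 1.22, 0.817 and 1.18, beside 1.22, 1.16, 0.889 and 1.22, so that the classes were close to each other in the family under IFNγ. The family's IFNγ median turned to 1.07 under the start-site scaling, beside 1.12 over all regions.

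**Figure D5:**
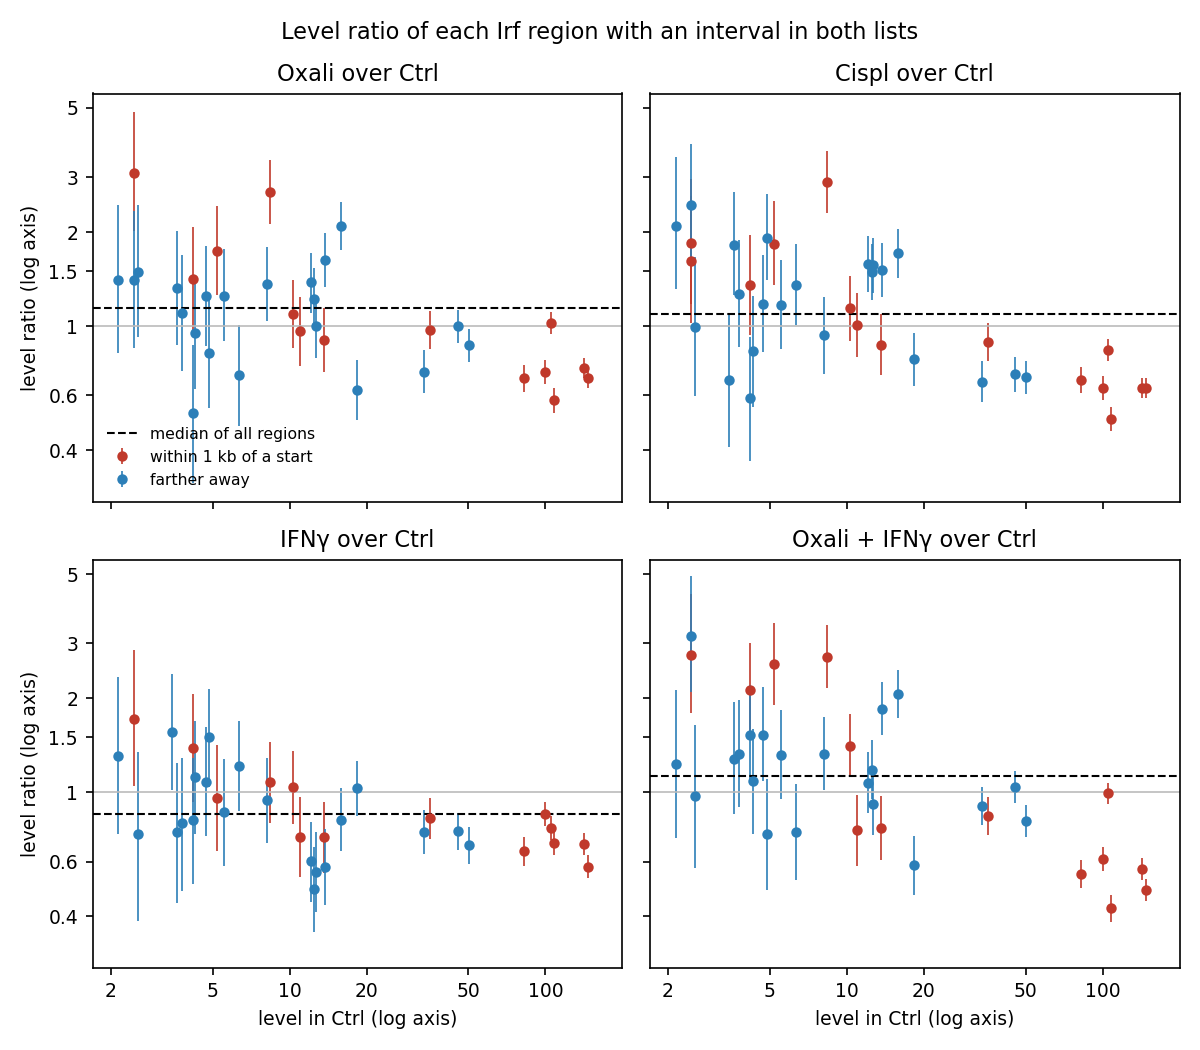
Level ratio of each IRF region with an interval in both lists against its Ctrl level, both on log axes, with 95% intervals for counting error, red within 1 kb of a transcript start and blue farther away. The dashed line is the median of all regions, 1.14 with Oxali, and the promoters of Irf1, Irf2, Irf3 and Irf9, with levels of 82.2 to 147 in Ctrl, lie below 1 in all 4 panels.

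The combination was also set beside each of its agents. Oxali + IFNγ over Oxali gave 3 of 41 regions higher (7.32%) and 2 lower, beside 3.99% and 4.54%, with a median of 0.978 against 0.994 over all regions. Scaled by start-site regions, the family's median turned to 1.19, beside 1.21 over all regions. Oxali + IFNγ over IFNγ gave 15 of 38 higher (39.5%) and 4 lower, beside 36.2% and 5.54%, with a median of 1.34 against 1.26, so the higher share was near that of all regions. Largest among the 15 were the Irf2 region at 11014 bp, 3.21 (2.49 to 4.17), the Irf8 region at 3757 bp, 2.67 (1.93 to 3.76), and the Irf8 coding exon and the Irf2 region at 103128 bp, both 2.52.

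The 2 platinum drugs, which differ in the carrier and leaving ligands on platinum and were both given at 2 µM, were close at most IRF regions. Cispl over Oxali gave 4 of 41 regions higher and 2 lower, beside 6.95% and 12.2% of all regions, with a median of 0.967 (0.912 to 1.15) against 0.932. The start-site scaling turned the family's median to 1.12, beside 1.08 over all regions. The 4 were in Irf1 (3′ untranslated region, 1.74, 1.18 to 2.62), Irf4 (1.57, 1.28 to 1.93, and 1.93, 1.38 to 2.75 at chr13:30769297-30769772, named after its values were seen) and beyond Irf9. These comparisons between treatments have no replicate check.

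The genes around the IRFs in the pathway were counted from lists chosen with results of these data known. Of 14 interferon receptor and JAK-STAT genes, 0 had a start-site level at least 1.5 times higher in any treatment, while 6 were lower under oxaliplatin, 10 under cisplatin, 7 under IFNγ and 11 under both agents. Of all start-site regions with an interval in both lists, 14.9%, 13.2%, 1.57% and 15.5% were higher and 18.9%, 33.5%, 30.8% and 41.9% lower in that order. Of those with a Ctrl level of at least 50, 36.3%, 68.3%, 47.7% and 80.8% were lower, shares close to those of the list. Of 17 IRF activators and partners found, 14 had a ratio, with medians of 0.741, 0.636, 0.737 and 0.623 in the same order, none below the medians of strong start sites given above. Tbk1, the kinase of IRF3, had 126 untreated and 54.3 under both agents.

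Among 22 IRF target genes, 17 had a start-site ratio under oxaliplatin, and 4 were at least 1.5 times higher and 4 lower. Higher were Cxcl10, a chemokine, at 7.66 untreated and 16.4 after oxaliplatin, Ifit1 at 8.57 and 21.5, Ifit3 at 8.65 and 18.0, and Rsad2, an antiviral enzyme, at 2.80 and 8.52. With Oxali + IFNγ the same 4 genes had 16.1, 27.3, 18.1 and 9.91. Lower under oxaliplatin were Psmb9 and Tap1, which share 1 region, Tapbp and B2m. Of start-site regions with a Ctrl level under 10, as at the higher genes, 41.5% were higher under oxaliplatin, and of those of at least 50, as at the lower ones, 36.3% were lower. With IFNγ alone, 0 of the 16 target genes with a ratio passed 1.5 times either way, beside 1.57% of all start-site regions higher and 30.8% lower. Genes without a start-site interval in 1 of the lists have no ratio. Among them Isg15 had none in Ctrl and 31.9 after oxaliplatin, 22.0 after cisplatin, 23.3 after IFNγ and 31.8 after both agents, and Mx1 had none in Ctrl and 3.99, 3.92, 2.39 and 5.19 in the same order. Oas1a had none in Ctrl or after IFNγ and 4.61 after oxaliplatin, 3.85 after cisplatin and 7.98 after both agents, and Rsad2 had none after IFNγ.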

How the data were processed

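ATAC-seq libraries (2 per group, 10 in all) were processed by the authors, who trimmed reads with cutadapt, aligned them to mm10 with Bowtie2 2.2.8, dropped poorly mapped, duplicate and mitochondrial reads, merged both libraries of a group and called peaks with MACS2 2.1.0 at a p of 0.01 without a control library, then removed blacklisted regions. The deposited score per summit was not used. The pileup and local background of each summit were solved from the deposited fold (a ratio, each term raised by 1) and −log10 p-value, with success for 100% of summits and a check on simulated data. Calls used the −log10 q-value deposited beside them. The deposited summit offset gave positions. No column was left without a group.

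Intervals overlapping by 1 bp were merged. A region was called at a q of at most 0.01, gained when called in a treated list with no deposited interval in Ctrl, and lost in the mirror case. A start-site region lies within 1 kb of a GENCODE M21 transcript start, and per gene the one with the highest summed level was taken. Ratio intervals are exact for a pair of Poisson counts (95%, scipy 1.17.1). Extended reads in a pileup are not independent molecules, so the intervals cover counting error only. Named were all 8 start-site regions and, per gene, up to 4 others gained or lost at a q of 1e-05, or past 1.5 times with an interval leaving out 1 and a pileup of 50. The members, lists and rules were chosen with earlier results of these data known. Alternatives were a stricter q, all deposited intervals, a common p, summits within 100 bp, equal list lengths, other distances around genes, scaling by start-site regions, the fold over local background, a ratio of 2 and wider merging. Counts per replicate were not analysed here. Values of some marker and pathway genes are not reported here.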

Additional observations from a re-analysis of the deposited data

How the results depend on the processing

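No paired analysis was possible because each list was called on both libraries of its group together. Leaving out a library was not run for the same reason. Of 192 values that answer a comparison, 123 stayed within their limits under the alternatives, 62 moved and 7 changed direction. The cause was not tested.

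With calls at a q of at most 1e-05, the lost regions were 1 for oxaliplatin, 0 for IFNγ and 1 for both agents, and the gained ones 8 for cisplatin and 3 for IFNγ. With the top 100000 intervals of each list, the lost regions were 5, 3 and 4 for oxaliplatin, cisplatin and both agents, and the gained ones 7 for cisplatin and 3 for both. With gene bodies alone, the called regions were 22, 22, 27, 21 and 24 in the order Ctrl, oxaliplatin, cisplatin, IFNγ, both, and the gained ones 2, 5, 1 and 4. There 7 regions were higher for cisplatin and 1 for IFNγ, and the median ratios turned to 0.986 for oxaliplatin, 0.947 for cisplatin and 0.877 for both. With 50 kb on either side, 122, 138, 162, 117 and 161 were called, 21, 43, 11 and 44 gained, 5, 4, 16 and 4 lost, 27, 35, 4 and 31 higher and 15, 22, 17 and 22 lower.

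Scaled by common start-site regions, 10, 6 and 16 regions were higher for oxaliplatin, IFNγ and both, and 1, 1 and 2 lower for cisplatin, IFNγ and both. The median turned to 1.07 for IFNγ, to 1.19 for both over oxaliplatin and to 1.12 for cisplatin over oxaliplatin, and was 1.45 for both over Ctrl. The medians of all regions were 1.12, 1.21, 1.08 and 1.52 in that order. Start-site ratios turned from below to above 1 at Irf4 for cisplatin (1.11) and both (1.04), and at Irf7 for oxaliplatin (1.07), cisplatin (1.13), IFNγ (1.08) and both (1.13). Start-site levels at least 1.5 times lower fell from 10 of 32 to 4. With the fold over local background there were 5, the higher regions were 3, 6 and 2 for oxaliplatin, cisplatin and both, the lower ones 2 for cisplatin, and the cisplatin median was 0.943. At a ratio of 2, the higher regions were 3, 3 and 0 for oxaliplatin, cisplatin and IFNγ, and the lower ones 0, 0, 1 and 2 over the 4 treatments. With the region at the 5′ end as start site, an alternative chosen after seeing the data, Irf8 was at 0.964 for oxaliplatin and 0.757 for both.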

Other observations

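Beyond the 10 kb windows, 136 more regions lay within 50 kb of the 8 genes, and those named here were chosen after their values were seen. Most were higher or gained with a platinum drug, but regions there also went the other way. At a start site of Scaf1, 18685 bp from the 5′ end of Irf3, the level was 177 untreated, 114 after oxaliplatin, 91.5 after cisplatin, 78.9 after IFNγ and 41.8 after both agents. Downstream of Irf2, 125893 bp from its 5′ end, 1 intergenic region was called at 15.0 after oxaliplatin and 13.8 after both agents and in no other list. Its neighbour at 128017 bp had 12.5 after oxaliplatin, 9.67 after cisplatin and 12.4 after both agents and no call in Ctrl or IFNγ. These regions are 155 and 174 bp wide and their pileups of 133 to 178 stand on a local background of 65.5 to 84.5, so their absence from a list gives no bound on the level there. A region 34436 bp upstream of Irf2, in an intron of Gm16675, had 13.8 untreated, 33.2 after oxaliplatin, 27.8 after cisplatin, 10.7 after IFNγ and 33.5 after both agents. As at the Irf2 region at 103128 bp, the 3 lists with a platinum drug were above Ctrl and IFNγ was lowest.

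On the side of Irf1 beyond its 3′ end, a region at 33217 bp had 11.9 after oxaliplatin, 5.67 after cisplatin and 15.0 after both agents and no call in Ctrl or IFNγ. Another at 51696 bp had 4.86 untreated, 14.8 after oxaliplatin, 9.45 after cisplatin, 4.26 after IFNγ and 22.1 after both agents. Upstream of Irf4, a region 10749 bp from the 5′ end had 4.86 untreated, 7.63 after oxaliplatin, 11.1 after cisplatin, 4.57 after IFNγ and 18.3 after both agents. In the last 2 regions the combination was the highest list and IFNγ the lowest.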
